A study of Mus musculus with 56 samples.

Results

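The genes described here are 9 mouse Toll-like receptors (TLRs), Tlr1 to Tlr9, and Myd88, the adaptor that most of these receptors share. They were taken by gene symbol, and all 10 were found among the 53819 to 55453 genes listed in each deposited table. MC38 cells, a colon carcinoma line of the mouse made to carry luciferase or GFP, had been placed in the rectum of female C57BL6 mice, and cells were sorted from the tumors on day 14. Tumors were left untreated or received short course radiotherapy (SCRT) as 5 fractions of 5 Gy. Cancer-associated fibroblasts (CAFs; CD45- CD31- podoplanin+ PDGFRa+ Ly6C+), tumor cells (GFP+) and CD8+ T cells each came from 5 untreated and 10 SCRT tumors. Another 11 libraries of CD8+ T cells belonged to SCRT mice that also received either control IgG or anti-IFNAR, an antibody that blocks the type I interferon receptor. Their labels give 5 libraries with IgG and 6 with anti-IFNAR. The study's text numbers these arms differently, and no result below depends on them.

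TLRs recognize microbial molecules and also molecules released by damaged cells. TLR2 pairs with TLR1 or TLR6 at the cell surface and binds lipoproteins, TLR4 with its partner MD-2 binds lipopolysaccharide, and TLR5 binds flagellin. TLR3, TLR7, TLR8 and TLR9 sit in endosomes and bind double-stranded RNA, single-stranded RNA and unmethylated CpG DNA. TLR3 signals through TRIF, and the other receptors named here signal through MyD88, which also serves the receptors for IL-1 and IL-18. In tumors, macrophages and dendritic cells are well-known carriers of many TLRs, B cells and plasmacytoid dendritic cells of TLR9, and fibroblasts of TLR3 and TLR4.

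For each gene the level used here is the authors' mean normalized count, which has no value per sample. The 10 tables held 3 sets of such means: 1 over the 30 CAF and tumor cell libraries together, 1 over the 15 untreated and SCRT CD8+ T cell libraries, and 1 over the 11 antibody CD8+ T cell libraries. Each set mixes untreated with treated tumors or antibody arms, and the first also mixes CAFs with tumor cells, so the means show neither an effect of SCRT, of response or of anti-IFNAR nor a difference between CAFs and tumor cells. They carry no replicate error, so no test was made, and neighbours in an order of levels cannot be told apart. To set levels side by side, each mean was also divided by the sum of all means of its set and given in parts per 1000000 (ppm). The sets were normalized separately by the authors.

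The means summed to 27689295 for CAFs and tumor cells, 30895949 for CD8+ T cells and 10763446 for the antibody CD8+ T cells. Of the last, 16.6% belonged to the ribosomal RNA genes Rn18s, mt-Rnr1 and mt-Rnr2, against 0.943% in CAFs and tumor cells. In CD8+ T cells, where Rn18s was not among the symbols, the share was 0.238%. Depth per library is unknown.

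At a mean of at least 10, all 10 genes were present in CD8+ T cells, as were 27.7% of all listed genes. The antibody CD8+ T cells gave the same count of 10, against 25.7% of all genes. In CAFs and tumor cells, 6 of the 10 genes reached that level, against 26.6% of all genes. The 4 that did not were Tlr5, Tlr7, Tlr8 and Tlr9. A given mean is a higher ppm in antibody CD8+ T cells, whose summed means were lowest. Counts at a mean of 10, here and below, therefore do not share a ppm cutoff. The ratio of CD8+ T cells to CAFs and tumor cells in ppm was at least 4 for Tlr1, Tlr2, Tlr7, Tlr8 and Tlr9, and Tlr3 was at least 4 times lower. Tlr5, at 0 in CAFs and tumor cells, has no ratio. Of the 16573 genes with a mean of at least 10 in either set, 17.7% were at least 4 times higher in CD8+ T cells, with genes at 0 in the other set included, and 17.1% at least 4 times lower. Tlr5, Tlr7, Tlr8 and Tlr9 reached that mean only in CD8+ T cells, so their place on the higher side restates the count above and adds nothing to it. The ratios of the 6 genes named stayed past 4 times with either of 2 other scalings.

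**Figure D1:**
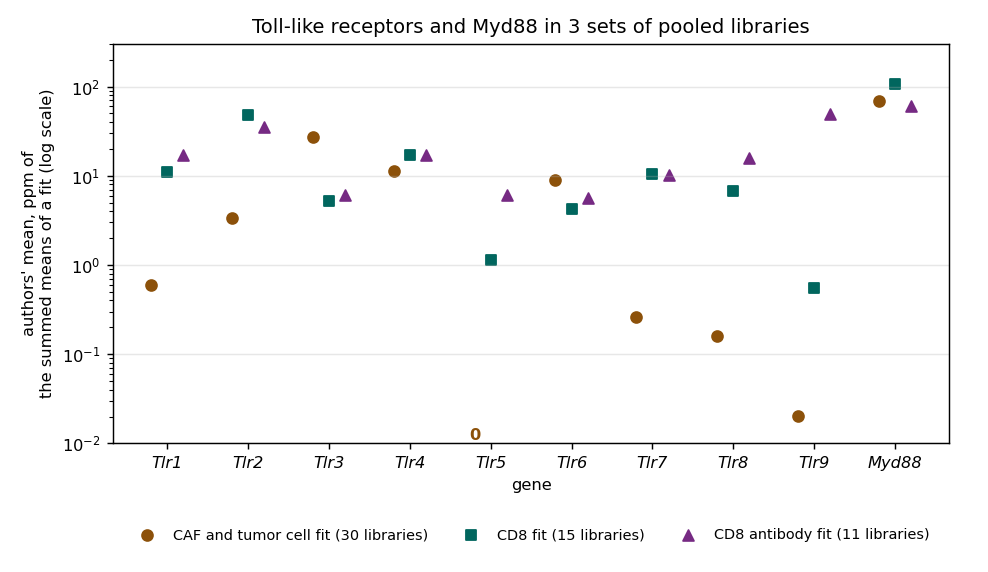
The authors' mean of each gene, in ppm of the summed means of its set (log axis), for CAFs and tumor cells (circles), CD8+ T cells (squares) and antibody CD8+ T cells (triangles), with no error bars since no value per sample was used. Tlr3 and Tlr6 had their highest point in CAFs and tumor cells, Tlr5 was listed there at 0, and Tlr9 ranged from 0.0205 to 48.8.

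Tlr3 was the receptor with the highest level per exon length in CAFs and tumor cells. Its mean was 749 there, 163 in CD8+ T cells and 64.7 in antibody CD8+ T cells. In ppm this was 27.0, 5.28 and 6.01, which put CAFs and tumor cells 5.12 times above CD8+ T cells. Against antibody CD8+ T cells the factor was 4.50, and it was 3.43 and 3.12 with the other scalings. Ticam1, which encodes the TLR3 adaptor TRIF, did not follow this order, with 8.42, 9.94 and 25.3 ppm. Of the 5666 stretches of 100 bases, the length of a read, in Tlr3 transcripts, 3.32% also lie in the antisense gene Gm45542, whose reads cannot be told from those of Tlr3 unless strand was used.

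Tlr4 was found in every set. Its mean was 311 in CAFs and tumor cells, 522 in CD8+ T cells and 184 in antibody CD8+ T cells. In ppm the values lay close together, at 11.2, 16.9 and 17.1. Antibody CD8+ T cells stood 1.52 times above CAFs and tumor cells, and 1.99 and 2.2 times with the other scalings. The partners of TLR4 were spread differently. Ly96, which encodes MD-2, stood at 11.7 ppm in CAFs and tumor cells and at 2.25 and 1.38 in the CD8+ T cell sets. Within a set the ratio of 2 genes is free of the scaling between sets. Tlr4 over Ly96, per exon length, was 0.177 in CAFs and tumor cells, 1.38 in CD8+ T cells and 2.28 in antibody CD8+ T cells. Cd14, the co-receptor that hands lipopolysaccharide to TLR4 and MD-2, stood at 24.2, 272 and 62.6 ppm.

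Tlr2 and its 2 partners divided by set. Tlr2 had a mean of 92.9 in CAFs and tumor cells, 1503 in CD8+ T cells and 381 in antibody CD8+ T cells, or 3.36, 48.6 and 35.4 ppm. The CD8+ T cell value was 14.5 times that of CAFs and tumor cells. Tlr1 went the same way, with means of 16.6, 337 and 186 and with 0.599, 10.9 and 17.3 ppm. Its ratio of CD8+ T cells to CAFs and tumor cells was 18.2.

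Tlr6 went the other way. Its mean was 250 in CAFs and tumor cells, 131 in CD8+ T cells and 60.7 in antibody CD8+ T cells. In ppm it was 9.02, 4.24 and 5.64, so that CAFs and tumor cells stood 2.13 times above CD8+ T cells and 1.60 times above antibody CD8+ T cells. The latter factor was 1.22 and 1.11 with the other scalings. Divided by exon length, Tlr1 over Tlr6 was 0.0739 in CAFs and tumor cells, 2.87 in CD8+ T cells and 3.42 in antibody CD8+ T cells. Tlr6 was thus the higher of the partners in 1 set and Tlr1 in the other 2. Tlr1 and Tlr6 are neighbouring genes with near-identical stretches, and 259 windows of 100 bases occur in both, which is 7.89% of those in Tlr1 and 7.09% of those in Tlr6. How reads from these stretches were assigned is not given in the sources used here.

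Tlr7 and Tlr8, neighbouring genes for endosomal receptors of single-stranded RNA, were near the bottom in CAFs and tumor cells, with means of 7.18 and 4.43. In CD8+ T cells they had means of 323 and 208, and in antibody CD8+ T cells 108 and 171. In ppm, Tlr7 was 0.259, 10.5 and 10.1 and Tlr8 was 0.160, 6.74 and 15.8. The CD8+ T cells thus lay 40.3 times above CAFs and tumor cells for Tlr7 and 42.2 times for Tlr8. Tlr7 over Tlr8, per exon length, was 1.42 in CAFs and tumor cells and 1.36 in CD8+ T cells, and 0.559 in antibody CD8+ T cells. Unc93b1, the chaperone that carries endosomal TLRs to their compartment, showed no such gap, at 180, 184 and 224 ppm.

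Tlr5 was listed at 0 in CAFs and tumor cells, among 21163 of the 53819 genes that were at 0 there. It was low in CD8+ T cells, with a mean of 34.8 or 1.13 ppm, and stood at 65.7 or 6.10 ppm in antibody CD8+ T cells. No ratio to CAFs and tumor cells can be given.

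Of the 10 genes, Tlr9 differed most between the CD8+ T cell sets. Its mean was 0.569 in CAFs and tumor cells, 16.8 in CD8+ T cells and 525 in antibody CD8+ T cells, or 0.0205, 0.545 and 48.8 ppm. The antibody CD8+ T cells stood 89.6 times above the other CD8+ T cells, and 118 and 124 times with the other scalings. Of the 15727 genes with a mean of at least 10 in either set, 88 had a higher ratio. Within a set, Tlr9 over Tlr7 per exon length was 0.0929 in CAFs and tumor cells, 0.0612 in CD8+ T cells and 5.68 in antibody CD8+ T cells. Per exon length, Tlr9 was thus at the bottom of the receptors in CD8+ T cells, beside Tlr5, and at the top in the antibody CD8+ T cells, beside Tlr2. None of its 3379 windows of 100 bases occurred in another gene's transcripts in GENCODE M21, the annotation used here. That annotation is on another genome build than the authors', so how their reads at Tlr9 were assigned was not tested.

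Myd88 had the highest mean of the 10 genes in every set, also per exon length. It was 1931 in CAFs and tumor cells, 3314 in CD8+ T cells and 654 in antibody CD8+ T cells, or 69.7, 107 and 60.7 ppm. Its range over the sets was narrow beside that of most receptors, with CD8+ T cells 1.54 times above CAFs and tumor cells. Antibody CD8+ T cells were at 0.871 of the CAF and tumor cell level, and at 1.14 and 1.26 with the other scalings, so this direction is not fixed. The gene overlaps Acaa1a on the other strand, and 4.69% of its windows of 100 bases are shared with it.

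Ordered by level per exon length in CAFs and tumor cells, the genes ran Myd88, Tlr3, Tlr6, Tlr4, Tlr2, Tlr1, Tlr7, Tlr8, Tlr9 and Tlr5, from 27.1 ppm per kilobase down to 0. In CD8+ T cells they ran Myd88, Tlr2, Tlr1, Tlr4, Tlr7, Tlr8, Tlr6, Tlr3, Tlr5 and Tlr9, from 41.6 down to 0.157. In antibody CD8+ T cells the order was Myd88, Tlr9, Tlr2, Tlr1, Tlr8, Tlr4, Tlr7, Tlr6, Tlr5 and Tlr3, from 23.6 down to 1.15. Tlr3 therefore led the receptors in CAFs and tumor cells and was among the 3 lowest in both CD8+ T cell sets, where its neighbours Tlr5 and Tlr6 cannot be told apart from it.

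**Figure D2:**
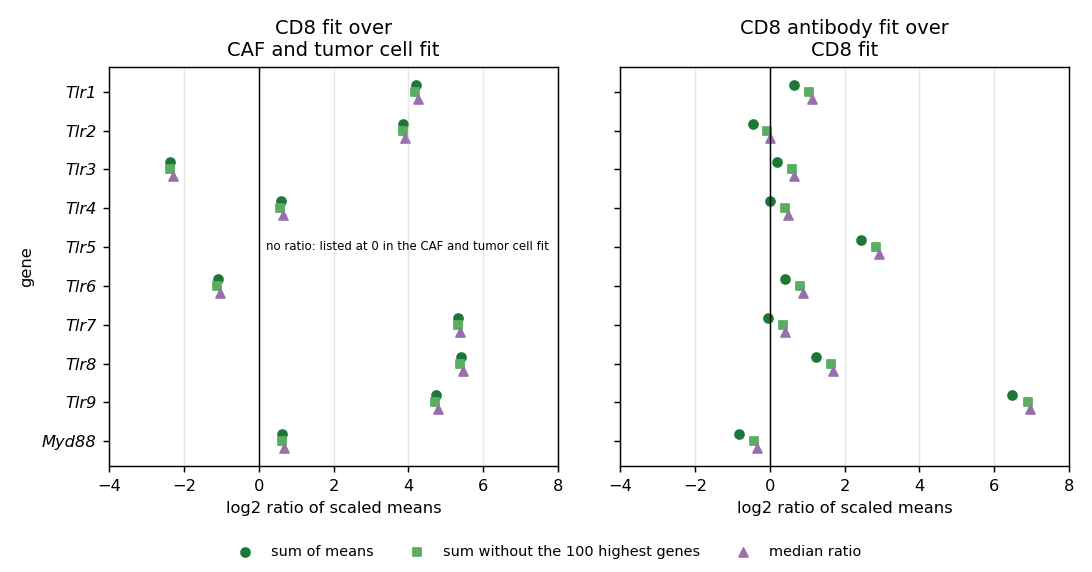
Log2 ratio of the scaled means for CD8+ T cells over CAFs and tumor cells (left) and antibody CD8+ T cells over the other CD8+ T cells (right), with each symbol standing for 1 scaling. On the left Tlr3 and Tlr6 lie below 0 under each scaling, and on the right Tlr9 lies between 6.48 and 6.95.

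Between antibody CD8+ T cells and the other CD8+ T cells, 2 of the 10 genes, Tlr5 and Tlr9, were at least 4 times higher, against 8.57% of all genes compared. No gene of the 10 was at least 4 times lower, against 5.88%. Among all genes past 4 times, 59.3% were higher in antibody CD8+ T cells, and 79.1% and 81.2% with the other scalings. Tlr5 was 5.43 times and Tlr8 2.35 times higher. Tlr1, Tlr3, Tlr4, Tlr6, Tlr7, Tlr2 and Myd88 had ratios from 0.566, for Myd88, to 1.58, for Tlr1, where the median of all genes compared was 0.752. Tlr2, at 0.728, and Tlr7, at 0.964, moved to 1.01 and 1.33 with the median ratio, so their direction depends on the scaling. These sets differ in irradiation, since 5 of the 15 CD8+ T cell libraries came from untreated tumors and all 11 antibody libraries from SCRT mice. They also differ in experiment, antibody treatment, share of ribosomal RNA and gene list, with 50692 symbols in common, and these differences cannot be told apart from a difference in the cells.

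Markers of other cells were measured in the same libraries. All 7 CD8+ T cell markers were high in CD8+ T cells, from 461 to 1652 ppm, and in antibody CD8+ T cells they were lower, from 164 to 787. In CAFs and tumor cells they lay between 0.0384 and 1.55. All 7 CAF markers were at 69.5 ppm or more in CAFs and tumor cells. The 8 macrophage markers summed to 945 ppm in CD8+ T cells, with each between 24.3 and 295, and to 1324 in antibody CD8+ T cells, with each between 54.8 and 311. In CAFs and tumor cells their sum was 68.2, with each between 2.43 and 16.7. Csf1r, the receptor for macrophage colony-stimulating factor, stood at 4.28 in CAFs and tumor cells, 164 in CD8+ T cells and 311 in antibody CD8+ T cells. Between the CD8+ T cell sets, 6 of the 8 were higher in antibody CD8+ T cells. The other 2 were lower, C1qb at 295 and 265 and Cd68 at 94.6 and 72.7. With the other scalings all 8 were higher there. Fewer cells of a type and less RNA per cell cannot be told apart in such libraries, and the part of macrophage transcripts in the TLR levels was not tested.

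Markers of other cells that could lie in the sort differed between the CD8+ T cell sets in both directions. The 3 B cell markers summed to 54.6 ppm in CD8+ T cells and 70.1 in antibody CD8+ T cells. Ms4a1, which encodes CD20, stood at 13.5 and 25.2. Cd79a and Cd79b, the chains of the B cell receptor complex, stood at 17.5 and 21.8 and at 23.5 and 23.1, and all 3 were higher in antibody CD8+ T cells with the other scalings.

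The 4 plasmacytoid dendritic cell markers summed to 288 and 89.1, and all 4 were lower in ppm in antibody CD8+ T cells. Bst2 was the largest part of both sums, at 148 and 36.4. Tcf4 stood at 44.4 and 34, but its ratio was 1.01 and 1.06 with the other scalings. Siglech, a lectin of plasmacytoid dendritic cells, stood at 53.0 and 2.45, which is 21.7 times lower in antibody CD8+ T cells. The sum of the 4 dendritic cell markers was 84.0 and 206. Of these, 3 were higher in antibody CD8+ T cells and Xcr1 was lower, at 18.9 and 11. The 5 neutrophil markers summed to 82.2 and 31.9, with 4 lower and Csf3r higher, at 14.2 and 24.6. The 3 endothelial markers summed to 64.6 and 63.1. Most of this was Pecam1, at 57.7 and 58.2, and the other 2 were lower in ppm.

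The 4 markers of colon epithelium summed to 14.2 and 40.3, and all 4 were higher in antibody CD8+ T cells under each scaling. Epcam, which made up most of the first sum, stood at 12.8 and 14.2. Krt8, a keratin of epithelium, was at 1.06 and 17.4, and Vil1, a protein of the brush border, was 13.8 times higher in antibody CD8+ T cells. Krt20, another keratin, went from 0.0222 to 4.02, a ratio of 181 and thus above the 89.6 of Tlr9. The part of any of these cells in the Tlr9 level was not tested.

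**Figure D3:**
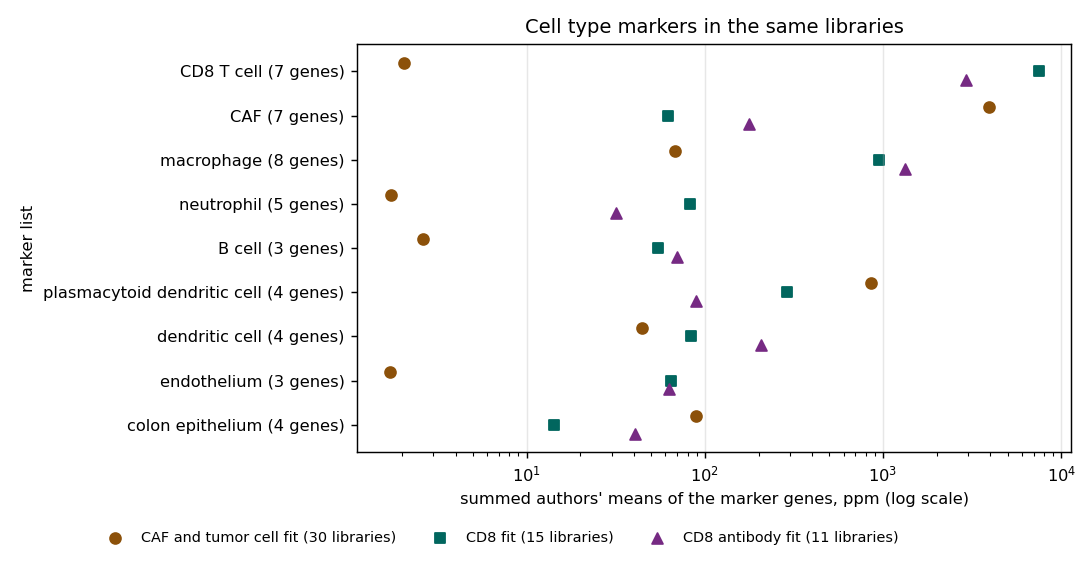
Summed authors' means of each marker list in ppm (log axis), for CAFs and tumor cells (circles), CD8+ T cells (squares) and antibody CD8+ T cells (triangles). CD8+ T cell markers dominate both CD8+ T cell sets, and macrophage markers come next there, with sums of 945 and 1324. In CAFs and tumor cells the plasmacytoid dendritic cell sum of 855 was nearly all Tcf4 and Bst2, at 431 and 423. Siglech was at 0.00744 and Ccr9 at 0.162 there. The dendritic cell sum of 44.5 there was nearly all Zbtb46, at 43.3.

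Around the receptors, 39 further genes of the pathway in 6 lists were examined. A mean of at least 10 was reached by 33 in CAFs and tumor cells, 39 in CD8+ T cells and 38 in antibody CD8+ T cells. Of all listed genes, 26.6%, 27.7% and 25.7% reached it. In what follows, the highest gene of a list is the one with the highest mean, not corrected for length. Tlr13, a receptor for bacterial ribosomal RNA and the highest of its list in both CD8+ T cell sets, stood at 0.941, 27.2 and 38.5 ppm. Tlr12 was the highest in CAFs and tumor cells at 2.17, and Tlr11 was listed there at 0.

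The signaling core was present in every set, with all 14 kinases and ubiquitin ligases at a mean of at least 10, against 25.7% to 27.7% of all genes. All 14 were higher in ppm in CD8+ T cells than in CAFs and tumor cells, against 49.7% of all genes compared. Their median ratio was 1.44, where that of all genes was 0.976. In antibody CD8+ T cells 8 were higher than in CAFs and tumor cells and 5 lower, with a ratio of 1.00 for the other, against 40.7% of all genes higher. With the other scalings 11 and 12 were higher, against 47.6% and 50.2%. Irak1, which MyD88 brings to the receptor complex, led the list in CAFs and tumor cells at 108. Ikbkb, an activating kinase of NF-kB, led in CD8+ T cells at 204, and Tab2, a scaffold of the TAK1 kinase, led in antibody CD8+ T cells at 154. The chaperone gene Hsp90b1, needed for TLR folding, was the highest of the co-receptors and chaperones in all 3 sets, at 798, 687 and 532.

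Among TIR adaptors, Tirap, which bridges TLR2 and TLR4 to MyD88, led in CAFs and tumor cells at 15.9, and Ticam1 led in both CD8+ T cell sets. Ticam2, the bridging adaptor between TLR4 and TRIF, was at 0.0414 in CAFs and tumor cells and at 4.84 in CD8+ T cells. Tnfaip3, which encodes the ubiquitin-editing inhibitor A20, was the highest of the inhibitors in all 3 sets, at 371, 1158 and 500. Irak3, which encodes an inhibitor of the pathway in myeloid cells, was at 0.245, 10.4 and 11.7.

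The IL-1 family receptors that use MyD88 differed between the sets. Il1r1, the IL-1 receptor, led in CAFs and tumor cells at 90.4, with 3.89 and 3.07 in the CD8+ T cell sets. Il18rap, a chain of the IL-18 receptor, led in CD8+ T cells at 166 and in antibody CD8+ T cells at 139, against 16.1 in CAFs and tumor cells.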

How the data were processed

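The authors deposited 10 tables of DESeq2 comparisons. Per the labels, the submitters' processing notes name fastp 0.20.1, STAR 2.7.6a, DESeq2 1.28.1, R 4.0.2 and mm39, and the counting tool is not given in the sources used here. The signal used is the deposited BaseMean: read counts divided by size factors and averaged by the authors over the libraries of a fit. It was identical for all genes in the 6 CAF and tumor cell tables and in the 3 tables of untreated and SCRT CD8+ T cells. The tables also hold log2 fold changes, Wald statistics, p-values and adjusted p-values. These are the authors' own comparisons and were not used, so responding, nonresponding and untreated tumors were not compared.

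Means were scaled to the sum of a fit, or, as alternatives, to the sum without the 100 highest genes or to the median ratio over 11390 genes. Exon lengths and transcripts came from GENCODE M21 on GRCm38, another build than mm39, and no coordinates were used. The scaling was tested on simulated data in which far fewer genes changed than differ between these sets. That test therefore cannot show that the scaling holds for them. Python 3.11.15 and pandas 2.3.3 were used. Genes named are the 10 and the highest gene of each pathway list, and others (Ly96, Cd14, Unc93b1, Ticam2, Irak3, Tlr11 and the single markers) were named after their values were seen. One marker gene is not reported here. The members and lists were chosen with earlier results of these data known.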

Additional observations from a re-analysis of the deposited data

How the results depend on the processing

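Each ratio of a gene between sets was recomputed with 2 other scalings, and all 56 values so obtained stayed within 1.45 times the reported one. In 5 of the 56 the ratio crossed 1: Tlr2 (with the median ratio) and Tlr7 (with both alternatives) between antibody CD8+ T cells and the other CD8+ T cells, and Myd88 (with both) between antibody CD8+ T cells and CAFs and tumor cells. With a minimum mean of 1 or 50, the counts of the 10 genes and of the pathway genes above it stayed within 1.5 times. In CAFs and tumor cells, CD8+ T cells and antibody CD8+ T cells, 8, 10 and 10 of the 10 genes reached a mean of 1. A mean of 50 was reached by 5, 8 and 10. Of the 39 pathway genes, 38, 39 and 39 reached a mean of 1, and 31, 37 and 34 a mean of 50. Over all genes the shares were 39.7%, 39.8% and 39.8% at 1, and 21.4%, 21.5% and 18.9% at 50. In the order of the 10 genes, dividing by exon length left 6 in the same place in CD8+ T cells and 5 in antibody CD8+ T cells. No paired analysis was possible because the means have no value per sample, and for the same reason no library could be left out. The depth of single libraries, and so the precision of a mean, is unknown.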
